A study of Mus musculus with 6 samples.

Results

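The regions described here are promoters that carried H3K4me3 in both of a pair of lymphoid progenitor lines but over a much longer stretch in the T cell progenitors. They were chosen by the measured peak widths. Overlapping peaks of the 2 lines were merged, and merged regions with a peak of each line were kept when they reached within 2500 bp of a transcription start site (TSS). Of 22625 merged regions, 9672 were such shared promoter regions. A region was a member when its summed peak width in Scid.adh.2C2 was at least 1500 bp and at least 2 times that in the second line. This gave 79 regions, or 0.817% of the shared promoter regions. The opposite pattern, with the same limits, was found at 465 regions, or 4.81%. Since the widths selected the regions, the widths below are descriptions and no test was made on them.

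Scid.adh.2C2 is a T cell progenitor line that grew out of a pro-T tumour of a CB17-Prkdc scid mouse, and the second line is a progenitor B cell line transformed with the Abelson virus, here called the B line. From each line 2 chromatin immunoprecipitations with an antibody to H3K4me3 and 1 input library were made. The authors combined the 2 replicates of a line into 1 list of peaks, so that no value per replicate and no spread between replicates can be given. Each lineage was represented by 1 transformed line, and lineage and line cannot be told apart. The lists held 15513 peaks for Scid.adh.2C2 and 19604 for the B line, with median widths of 1542 and 1590.5 bp. Defining markers followed the labels. A promoter counted as marked when a peak lay within 2500 bp of any annotated start of the gene, internal starts included. By this rule promoters of 10 of 10 T cell progenitor genes were marked in Scid.adh.2C2 against 3 of 10 in the B line (Cd3d, Lck and Tcf7). At Cd3d no B line peak held the start of the full-length transcript. For 8 B cell progenitor genes the numbers were 1 (Vpreb1) and 8. None of 6 myeloid promoters was marked in either line. Of 4 natural killer cell promoters, 1 (Klrd1) was marked in the B line and none in Scid.adh.2C2.

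Trimethylation of lysine 4 of histone H3 is placed around the start sites of active and poised genes, mainly on the nucleosomes just downstream of the start, and CpG-rich DNA recruits the enzymes that write it. At most promoters the mark forms a compact peak. At a minority it spreads far into the gene body, and such broad domains are known from genes that define the identity of a cell.

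The sequences below show what lay inside the domains. CpG dinucleotides, which are bound by CXXC proteins of the H3K4 methyltransferase complexes, are in capitals. All are on GRCm38, 5′ to 3′ on the strand of the gene. The promoters, from RefSeq, run from 250 bases before to 50 bases after the start. The promoter of Tcf7 (chr11:52282546-52282845, minus strand, 17 CpGs) is shown since it was covered in full by the peaks of both lines at the region with the largest ratio. The second Tcf7 sequence (chr11:52281433-52281732, minus strand, 8 CpGs) surrounds the summit of the Scid.adh.2C2 peak in an intron of Tcf7 and lay wholly outside the B line peak. The promoters of Nrarp (chr2:25180508-25180807, plus strand, 21 CpGs) and Fkbp5 (chr17:28486100-28486399, minus strand, 32 CpGs) were also covered in full in both lines. The promoter of Cd160 (chr3:96814472-96814771, minus strand, 6 CpGs) was covered in full in Scid.adh.2C2 and by no base in the B line. For Hist1h4j (chr13:21734784-21735083, plus strand, 18 CpGs, named H4c11 by RefSeq), 48 bases lay in the Scid.adh.2C2 peak of the region and none in its B line peak. This promoter was not free of the mark in the B line. A neighbouring shared region (chr13:21733840-21734942), with 871 bp in Scid.adh.2C2 and 1098 bp in the B line, reached into it.
Tcf7 promoter: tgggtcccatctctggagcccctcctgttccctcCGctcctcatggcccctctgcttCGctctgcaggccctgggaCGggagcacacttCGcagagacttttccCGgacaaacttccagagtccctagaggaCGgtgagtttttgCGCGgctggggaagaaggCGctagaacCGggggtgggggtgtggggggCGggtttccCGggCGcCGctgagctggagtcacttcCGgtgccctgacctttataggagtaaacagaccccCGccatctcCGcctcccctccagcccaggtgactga
Tcf7 summit in Scid.adh.2C2: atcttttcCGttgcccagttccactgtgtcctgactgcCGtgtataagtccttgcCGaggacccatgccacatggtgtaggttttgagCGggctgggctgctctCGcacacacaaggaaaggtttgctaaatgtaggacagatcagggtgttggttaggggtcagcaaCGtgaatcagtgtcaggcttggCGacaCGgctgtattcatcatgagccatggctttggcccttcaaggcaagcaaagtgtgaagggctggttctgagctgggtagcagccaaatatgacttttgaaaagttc
Nrarp promoter: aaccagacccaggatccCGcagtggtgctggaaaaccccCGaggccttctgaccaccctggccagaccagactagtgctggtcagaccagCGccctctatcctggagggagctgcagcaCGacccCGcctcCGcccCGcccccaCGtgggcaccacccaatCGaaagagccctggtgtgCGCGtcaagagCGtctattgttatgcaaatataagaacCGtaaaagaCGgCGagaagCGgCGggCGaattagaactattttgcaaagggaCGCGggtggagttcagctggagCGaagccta
Fkbp5 promoter: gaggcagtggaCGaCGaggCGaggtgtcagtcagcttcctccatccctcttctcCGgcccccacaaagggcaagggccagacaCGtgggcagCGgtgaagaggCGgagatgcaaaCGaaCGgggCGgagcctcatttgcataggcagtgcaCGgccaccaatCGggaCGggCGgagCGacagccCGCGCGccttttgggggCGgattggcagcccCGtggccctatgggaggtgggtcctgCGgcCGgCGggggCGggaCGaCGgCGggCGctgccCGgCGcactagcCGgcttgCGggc
Cd160 promoter: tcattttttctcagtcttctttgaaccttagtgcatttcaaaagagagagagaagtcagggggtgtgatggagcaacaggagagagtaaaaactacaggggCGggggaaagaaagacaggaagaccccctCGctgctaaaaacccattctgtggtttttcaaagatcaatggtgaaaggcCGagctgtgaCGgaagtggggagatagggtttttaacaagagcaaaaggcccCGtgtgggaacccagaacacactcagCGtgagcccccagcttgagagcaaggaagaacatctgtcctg
Hist1h4j promoter: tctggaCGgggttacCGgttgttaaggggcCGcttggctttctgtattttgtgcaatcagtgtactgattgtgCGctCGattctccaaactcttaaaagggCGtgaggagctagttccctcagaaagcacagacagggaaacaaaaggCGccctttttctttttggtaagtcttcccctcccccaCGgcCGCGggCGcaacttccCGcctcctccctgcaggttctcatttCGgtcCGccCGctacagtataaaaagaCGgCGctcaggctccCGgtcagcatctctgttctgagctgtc

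The 79 regions covered a median of 2750 bp in Scid.adh.2C2, with a range from 1520 to 10029 bp. In the B line the median was 1031 bp, with a range from 343 to 3983 bp. The width ratio ran from 2.00 to 7.53 with a median of 2.55. Over all 9672 shared promoter regions the median ratio was 0.904, and 2646 of them (27.4%) were wider in Scid.adh.2C2. The members thus lay at the far end of a distribution centred on slightly narrower peaks in this line. Their widths in the B line were small for its list. In 65 of 79 regions the B line width was below the median of its own list, and in 0 it reached the 95th percentile. In Scid.adh.2C2, 23 of 79 reached the 95th percentile of the list.

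**Figure D1:**
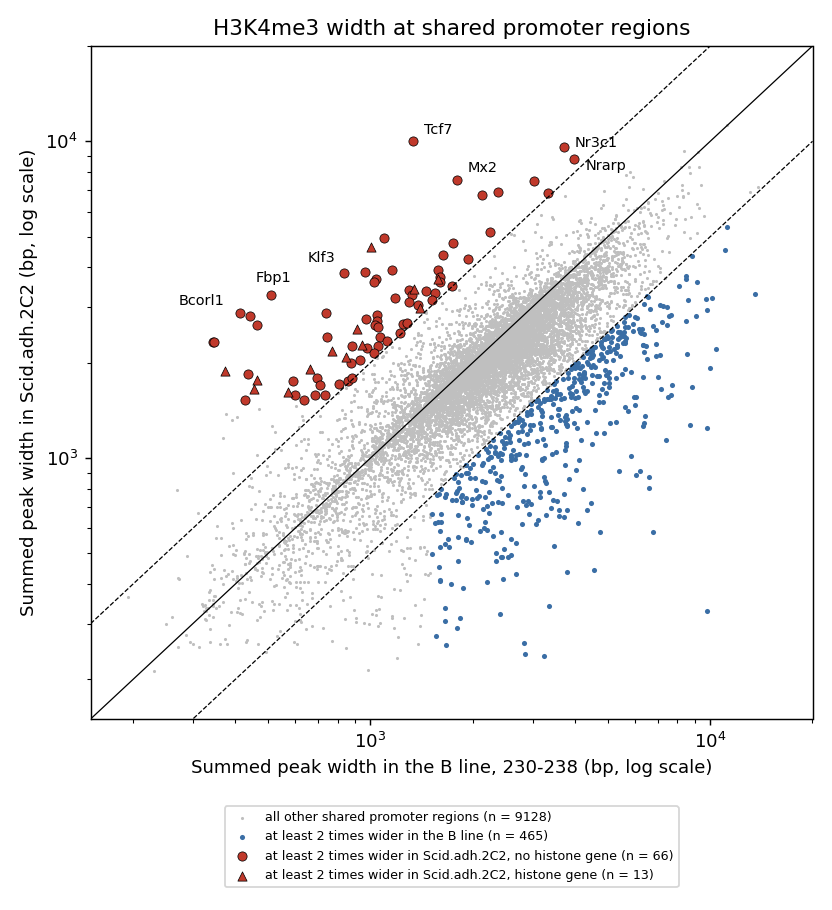
Summed H3K4me3 peak width of each of 9672 shared promoter regions in the B line (horizontal axis, bp, log scale) and Scid.adh.2C2 (vertical axis, bp, log scale). Red marks the 79 regions at least 2 times wider in Scid.adh.2C2, with triangles for the 13 that hold a histone gene, blue the 465 regions at least 2 times wider in the B line, the solid line equal widths and the dashed lines ratios of 2 in either direction.

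Close to the limits, the regions of Dpf1, Gm45889 and Rhpn2 were just inside with ratios of 2.00, 2.03 and 2.03. Those of Sesn3, Zbp1 and Bex6 were just outside with ratios of 1.99, 1.99 and 1.98. The narrowest members were at Ebag9 (1520 bp), Zfp984 (1525 bp) and Rps6ka1 (1578 bp). A further 16 regions had a ratio of at least 2 but a width under 1500 bp in Scid.adh.2C2, the widest of them at Olfml3 (1464 bp).

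The domain of Tcf7 had the largest width and the largest ratio of all members. Tcf7 encodes TCF1, an HMG-box factor that is switched on by Notch signals and opens the T cell programme. In Scid.adh.2C2 its peak covered 10029 bp (chr11:52275488-52285516) and was the second widest of the 15513 peaks of that list. In the B line the peak covered 1332 bp. From the more downstream of the annotated Tcf7 starts, the Scid.adh.2C2 peak reached 2945 bases upstream and 7083 bases downstream, whereas the B line peak ended 162 bases downstream. The summit moved from 495 bases upstream in the B line to 988 bases downstream in Scid.adh.2C2. Of 8697 bases marked in Scid.adh.2C2 alone, 6921 lay downstream of the start. Their ratio of observed to expected CpGs was 0.27, against 0.83 in the bases marked in both lines.

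Klf3, Nrarp and Tgfbr1 belonged to gene lists described below. Klf3 was on the study's T-lineage list, Nrarp on the Notch pathway list and Tgfbr1 on the homing and cytokine receptor list. Klf3, a zinc finger repressor of the KLF family, had 3839 bp in Scid.adh.2C2 and 835 bp in the B line, a ratio of 4.60. Nrarp, a target of Notch signalling that also restrains it, had 8806 and 3983 bp, a ratio of 2.21. At Nrarp the domain grew almost wholly upstream, with 4823 added bases of which 42 lay downstream of the start. Tgfbr1, the type I receptor kinase for TGF-beta, had 2626 and 1031 bp, and all of its 1607 added bases were downstream. Both lines had a further peak within 127 bases of this region.

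Cd3d encodes the delta chain of the CD3 complex, and its member region was not at the main promoter. It covered 2837 bp in Scid.adh.2C2 and 1048 bp in the B line and was named by an internal start (chr9:44983839-44986712). The start of the full-length transcript lay in a separate peak of 5672 bp in Scid.adh.2C2 (chr9:44977839-44983510, 38.0-fold enriched) and in no peak of the B line. In the B line the gene carried a second peak of 447 bp, 79 bases from the region.

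Of the study's T-lineage list, drawn from expression in normal mouse blood cells and so independent of these libraries, 224 of 233 symbols were found in the annotation and 70 genes had a shared promoter region. Members held promoters of 8 of these genes (Tcf7, Klf3, Gbp8, Prss57, Fkbp5, Cd3d, Ssbp3 and Slc9a9). In regions, 9 of 79 members (11.4%, Wilson 95% interval 6.11 to 20.3%) held such a promoter, since Fkbp5 had 2. Prss57, a serine protease of neutrophil granules, had 2416 and 747 bp, and Slc9a9, an endosomal sodium/proton exchanger, had 3601 and 1606 bp. Over all shared promoter regions the share was 0.858% (83 of 9672), and over the regions wider in the B line it was 1.94% (9 of 465). The median ratio over its 83 regions was 1.04, and 10 of its genes were at regions at least 2 times wider in the B line. Of the B-lineage list, 85 genes had a shared promoter region and 1 was at a member. This gene, listed as H2bc7, is the histone gene Hist1h2bf, whose promoter windows fell in 2 member regions (2.53% of 79, interval 0.697 to 8.77%). The share was 1.06% over all shared promoter regions and 6.45% over the regions wider in the B line.

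The remaining lists of known genes held few members. Among genes with a shared promoter region, 1 of 21 T lineage transcription factors (Tcf7), 1 of 15 T cell surface and receptor signalling genes (Cd3d), 1 of 17 Notch pathway genes (Nrarp) and 1 of 23 homing and cytokine receptor genes (Tgfbr1) was at a member. None of 11 B cell progenitor genes, 7 stem cell factors and T leukaemia oncogenes, 2 myeloid and natural killer genes and 17 H3K4 methyltransferases and demethylases was. At regions wider in the B line these lists had 5, 3, 1 and 5 genes, and 6, 3, 0 and 1 genes, in the same order. Over all shared promoter regions 0.817% were members and 4.81% were at least 2 times wider in the B line.

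The next largest ratios came from genes with varied roles. Bcorl1, a corepressor related to BCOR, had 2879 bp in Scid.adh.2C2 and 414 bp in the B line, a ratio of 6.95. Bola1, a mitochondrial protein of iron-sulfur metabolism, had 2322 and 343 bp, a ratio of 6.77. Nuggc, a nuclear GTPase, had 2328 and 346 bp, a ratio of 6.73. In these 3 regions no annotated start lay inside a B line peak, whereas the naming start lay inside the Scid.adh.2C2 peak. At Bcorl1 the B line peak of the region began 1744 bases downstream of the start, and another B line peak lay 195 bases from the region. Fbp1, a gluconeogenic phosphatase, had 3279 and 508 bp, a ratio of 6.45, and its start lay inside both peaks. Prcd had 2803 and 443 bp, a ratio of 6.33. Cd160, an immunoglobulin-family receptor of T and natural killer cells, had 2631 and 464 bp, a ratio of 5.67. The B line peak at Cd160 lay between 1229 and 1692 bases downstream of the start, beyond the promoter printed above. Of these genes Bcorl1, Nuggc, Fbp1, Prcd and Cd160 were no longer members when the longer list was shortened to equal numbers of peaks, and Fbp1, Prcd and Cd160 also not when peaks had to be at least 10-fold enriched. Tgfbr1, Sept9, Tet1 and Gbp8 were lost under both of these settings.

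The widest domains after Tcf7 included those of Nr3c1 and Fkbp5. Nr3c1, the glucocorticoid receptor, had 9565 bp in Scid.adh.2C2 and 3719 bp in the B line, a ratio of 2.57, and 5777 of 5849 added bases lay downstream. Fkbp5, a cochaperone that binds the receptor complex and is induced by it, had member regions at 2 of its starts. The first covered 6762 against 2135 bp (chr17:28481741-28488502) and the second 4255 against 1934 bp (chr17:28515322-28519680). Ssbp3, a partner of the LDB1 adaptor of LIM and GATA factor complexes, had 7480 and 3022 bp. Mtf2, an accessory subunit of Polycomb repressive complex 2, had 6879 and 3334 bp. Ankrd27 (6894 against 2366 bp), the fatty acid elongase Elovl5 (5175 against 2249 bp) and the septin Sept9 (4945 against 1098 bp) completed the 10 widest, with Mx2 and Nrarp. At Sept9 the highest B line peak was 7.11-fold enriched and began 1904 bases downstream of the start.

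Several further members, named after their values were seen, are linked to the interferon response or act on chromatin. Mx2, an interferon-induced GTPase annotated as a polymorphic pseudogene in this mouse genome, had 7574 and 1797 bp. Gbp8, a guanylate-binding protein, had 1844 and 435 bp. Usp18, which removes the ubiquitin-like ISG15, had 3735 and 1607 bp. Ifi27 had 2648 and 1244 bp, and Slfn8 had 2490 and 1224 bp. Among chromatin regulators, the DNA methyltransferase Dnmt3a had 3269 and 1321 bp and Tet1, which oxidizes methylcytosine, had 2873 and 739 bp. The acetyltransferase Kat7 had 3212 and 1182 bp. At Kat7 the B line peak lay wholly upstream of the start and the Scid.adh.2C2 peak spanned it. No list of these functions was fixed, and their number among members was not compared with other genes.

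Histone genes made up 13 of the 79 members. The replication-dependent histone genes lie in clusters, lack introns and are transcribed in S phase, and their members are near-identical copies, so reads shared between copies may be placed unevenly. Whether this affected the widths was not tested. Shared promoter regions that held a histone gene numbered 57, of which 13 (22.8%) were members and 0 were at least 2 times wider in the B line. Over regions with no histone gene the shares were 0.686% and 4.84%. Of the 57 regions 51 were wider in Scid.adh.2C2, and the median ratio was 1.38 against 0.903 for regions with no histone gene. On chromosome 13, 42 of 44 regions were wider in Scid.adh.2C2 and 12 were members. On chromosome 3, 6 of 9 were wider and 0 were members. Of 3 regions on chromosome 11 all were wider and 1, at Hist3h2ba, was a member. The grouping by histone genes was made after the values were seen, and many of these regions are neighbours.

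**Figure D2:**
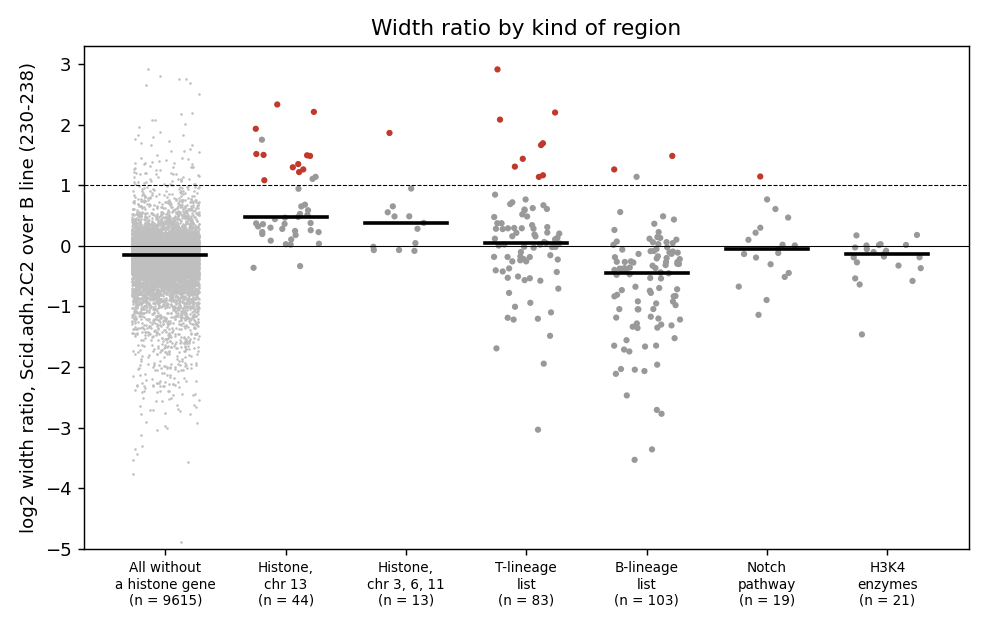
Width ratio of shared promoter regions (vertical axis, log2, Scid.adh.2C2 over the B line) for regions with no histone gene, histone regions on chromosome 13 and on the other chromosomes, and regions of the T-lineage list, B-lineage list, Notch pathway and H3K4 enzymes. Each point is a region, red points outside the first column are members, the thick bars are medians and the dashed line is a ratio of 2. The median of the histone regions is above 0 in both columns, and that of the B-lineage list is below that of the regions with no histone gene.

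The largest ratios in the family were at Hist1h2ak (1880 against 373 bp, ratio 5.04), Hist1h3g (4649 against 1004 bp, ratio 4.63) and Hist1h4j (1767 against 463 bp, ratio 3.82). The region of Hist1h3g began at the start of the gene and ran 4648 bases downstream. All 13 histone members had most of their added bases downstream of the naming start, with shares from 93.5 to 100%. Peak position largely fixed this. Where the naming start lay outside the Scid.adh.2C2 peak, that peak began 10 (Hist1h4f) to 257 bases (Hist1h2bg) downstream of it. A share of 100% was then given in advance. The other Scid.adh.2C2 peaks reached at most 396 bases upstream (Hist1h2bm). The naming start lay in a B line peak in 0 of 13 and in a Scid.adh.2C2 peak in 7 of 13. Another B line peak lay within 1000 bp of 11 of the 13 regions, and another Scid.adh.2C2 peak within 1000 bp of all 13. Over all shared histone regions the naming start lay in a B line peak in 21.1% and in a Scid.adh.2C2 peak in 38.6%. The gain was mostly downstream in 72.7%. Another B line peak was as near in 44 of 57 (77.2%), and another Scid.adh.2C2 peak in 52 of 57 (91.2%).

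In most members the B line peak was a piece of the Scid.adh.2C2 domain. The B line peaks lay wholly inside those of Scid.adh.2C2 in 61 of 79 regions (77.2%), against 13.4% of all shared promoter regions. A width rule favours this, and in the regions wider in the B line the narrower peaks lay wholly inside the wider ones in 348 of 465 (74.8%). Bases marked in the B line alone had a median of 0 and a highest value of 369 bp. Bases marked in Scid.adh.2C2 alone, the added bases, had a median of 1781 bp and a range from 847 to 8697 bp. The gain was mostly downstream of the naming start in 62 of 79 regions and mostly upstream in 17. Of the 5844 shared promoter regions with any base marked in Scid.adh.2C2 alone, the gain was mostly downstream in 32.9% and mostly upstream in 67.0%. These gains were mostly short edges and not of the size seen in members. Over all 9672 shared promoter regions the added bases had a median of 21 bp and an upper quartile of 121 bp. The median share of added bases that lay downstream was 80.2%, and it was 72.9% without the histone regions. In the 465 regions wider in the B line the bases gained by the B line had a median of 2301 bp, nearer in size, and a median downstream share of 86.4%. Of 168.9 kb added over all members, 58.3% lay in introns, 23.7% between genes and the rest in exons. Without the histone regions 66.7% lay in introns and 15.7% between genes. For bases added over all shared promoter regions these shares were 46.9 and 35.3%. They were 67.7 and 14.0% for bases gained by the B line in the regions wider there. Cd3d, Ebag9, Tle6 and Gm44734, chosen after their values were seen, gained no base downstream of the naming start.

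**Figure D3:**
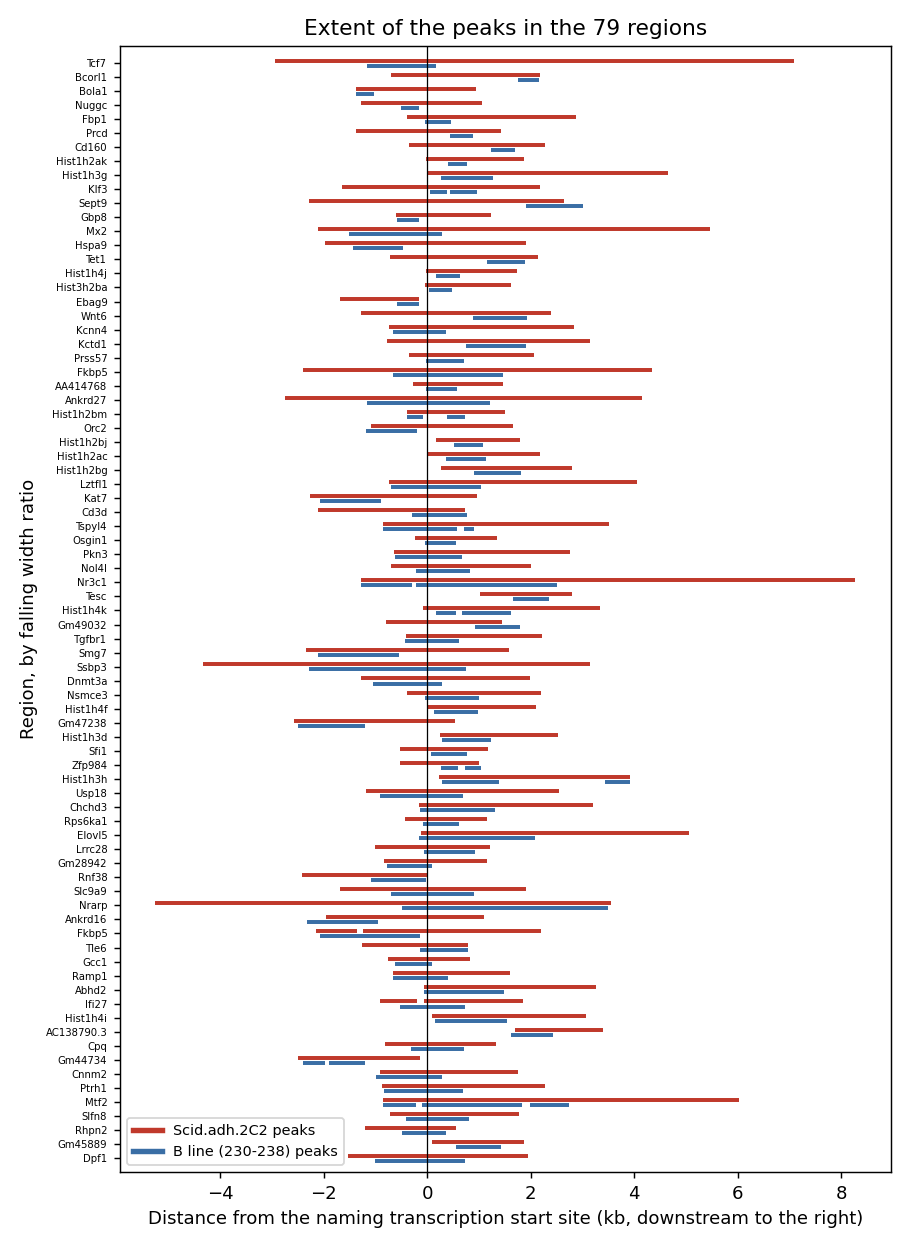
Extent of the Scid.adh.2C2 (red) and B line (blue) peaks in the 79 regions, in kb from the naming start site with downstream to the right (horizontal axis), and with regions in order of falling width ratio (vertical axis). Tcf7, Mx2, Nr3c1, Mtf2 and Elovl5 have the red bars that run farthest downstream, and Nrarp and Ssbp3 have the longest red bars upstream.

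A wider peak is more likely to reach a start site, so the coverage of starts is a description of the chosen regions. The naming start lay inside a Scid.adh.2C2 peak in 68 of 79 members and inside a B line peak in 39 (49.4%). Of all shared promoter regions 85.2% had it covered in Scid.adh.2C2, and 84.4% in the B line. The naming start was chosen next to the Scid.adh.2C2 summit, which favours that line. With any annotated start counted, 34 of 79 members (43.0%) had none inside a B line peak, against 13.5% of all shared promoter regions. In the regions wider in the B line, 21.7% had no start inside a Scid.adh.2C2 peak. Klf3, Tet1, Wnt6 and Hspa9, a mitochondrial chaperone, were among the members with no start inside a B line peak. The last 2 were named after their values were seen. The Scid.adh.2C2 summit lay within 1000 bases downstream of the naming start in 57 of 79 members and the B line summit in 35. The choice of the start by the Scid.adh.2C2 summit favours that line here too. These summit positions were not counted over all shared promoter regions. A narrow B line peak beside a start need not belong to the gene that names the region, and peaks were not assigned to transcripts.

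The added bases were poor in CpG. The ratio of observed to expected CpGs had a median of 0.300 in bases marked in Scid.adh.2C2 alone and 0.500 in bases marked in both lines. It was lower in the added bases in 56 of 79 members (70.9%), close to the 65.4% over all shared promoter regions with both values, whose medians were 0.362 and 0.599. Most added stretches over all shared promoter regions were far shorter than in members, as given above. The regions wider in the B line had medians of 0.239 and 0.542, and 408 of 465 had the lower value in the added bases. The content of G and C had medians of 47.6% in the added and 51.3% in the common bases of the members. Nr3c1 (0.30 against 0.82), Tcf7 and Nrarp (0.17 against 0.66) had a strong contrast between added and common bases. Kat7 (0.69 against 0.47) and Cnnm2 (0.85 against 0.71), chosen after their values were seen, had more CpGs in the added bases. The histone members had near-equal medians of 0.422 and 0.423, while the ratio was lower in the added bases in 9 of 13.

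**Figure D4:**
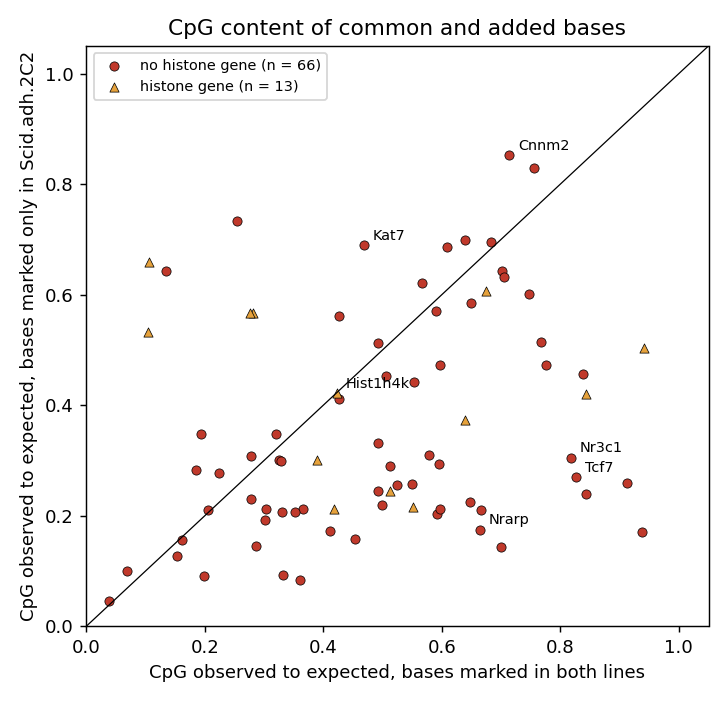
Ratio of observed to expected CpGs in bases marked in both lines (horizontal axis) and in bases marked in Scid.adh.2C2 alone (vertical axis) for each of the 79 regions. Triangles are the 13 histone regions and the line marks equal ratios. In 56 of 79 regions the point lies below the line.

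Motifs of lymphoid factors were counted on both strands as exact letters. The letters searched were TGTGGT for RUNX factors, which work throughout lymphoid development, and AGATAA for the GATA family, which includes the T cell factor encoded by Gata3. The letters CTTTGA stood for the TCF/LEF family, to which TCF1 belongs, and the letters GGAAGT stood for the large family of ETS factors. None of these strings contains another. A RefSeq promoter of the naming gene overlapped 46 of 79 members and 6803 of 9672 shared promoter regions. Of the member promoters 10.9% held RUNX, 10.9% GATA, 4.35% TCF/LEF and 30.4% ETS letters (5, 5, 2 and 14 promoters). Over all matched promoters the shares were 11.6, 5.48, 11.4 and 31.0%. In the Cd160 promoter printed above, RUNX, TCF/LEF and ETS letters were present, and in the Tcf7 promoter ETS letters. The bases added in the members held 0.906 RUNX matches per kb, against 0.768 in the bases added over all shared promoter regions, 0.841 in the bases added in the regions wider in the B line and 0.602 in the common bases of all shared promoter regions. In the same order the values were 0.580, 0.536, 0.541 and 0.436 per kb for GATA, 0.811, 0.726, 0.720 and 0.621 per kb for TCF/LEF, and 0.527, 0.647, 0.794 and 0.765 per kb for ETS. Without the histone regions the bases added in the members held 0.969 RUNX, 0.522 GATA, 0.820 TCF/LEF and 0.556 ETS matches per kb. For GATA this was below both other sets of added bases. Base composition differs between these sets, and a match is not a bound site. The window of 300 bases at the Tcf7 summit held none of these letters.

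The fold enrichment of a peak over its background depends on the library, so it was compared as a percentile within the list of its own line. The highest peak of a member had a median percentile of 59.3 in the Scid.adh.2C2 list and 37.9 in the list of the B line. Over all shared promoter regions the medians were 66.6 and 71.3. The percentile was higher in the Scid.adh.2C2 list in 60 of 79 members, against 43.4% of all shared promoter regions. Peaks end where signal over background falls, so a width rule favours higher peaks in the wider list. Height is therefore not a separate trait of the members. The matching share was not counted for the regions wider in the B line. Tcf7 was 36.0-fold enriched in Scid.adh.2C2 (percentile 94.1) and 15.2-fold in the B line (percentile 49.5). Sept9 (82.0 against 8.65) and Cd160 (74.7 against 10.0) had the widest gaps in percentile among the regions named so far. Height and width did not always go together. Cd3d had the lower percentile in Scid.adh.2C2 (34.1 against 55.3), as had Kat7 (83.4 against 97.7) and Nr3c1 (61.4 against 79.8). The region of Sfi1, chosen after its values were seen, was only 2.93-fold and 2.77-fold enriched.

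**Figure D5:**
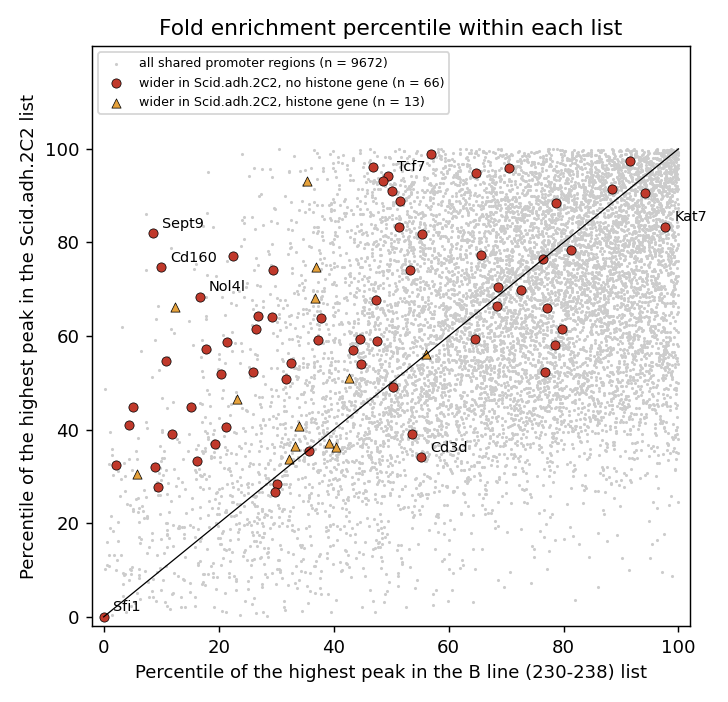
Percentile of the fold enrichment of the highest peak of each region within the list of the B line (horizontal axis) and the Scid.adh.2C2 list (vertical axis), for 9672 shared promoter regions (grey) and the 79 members (red circles, and yellow triangles for the 13 histone regions). The line marks equal percentiles, and 60 of 79 members lie above it.

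Some of the B line peaks of members had a lower score for reproducibility between the replicates. The highest B line peak had a score below the maximum of 1000 in 8 of 79 members (10.1%), against 1.89% of all shared promoter regions. The score comes from the authors' comparison of the replicates. Ranks per replicate are not in the lists, so different ranking and weak signal in both replicates cannot be told apart. For Scid.adh.2C2 the numbers were 2 of 79 and 2.77%. In the regions wider in the B line, the narrower Scid.adh.2C2 peaks had a highest score below 1000 in 27 of 465 (5.81%). The B line peaks of Sept9, Gbp8 and the wider Fkbp5 region had scores of 836, 685 and 859. They were 7.11-fold, 7.15-fold and 14.7-fold enriched. In bulk chromatin, fewer cells with the mark and less mark per cell cannot be told apart.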

How the data were processed

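H3K4me3 was measured by ChIP-seq in 6 samples in 4 groups (2 ChIP libraries and 1 input for each line), placed by the sample labels. Reads were trimmed (Trim Galore 0.6.7) and aligned to mm10 (GRCm38) by the authors with Bowtie2 2.4.4, who called peaks against the input with MACS2 2.2.7.1 at a q-value of 0.05 and kept peaks reproducible between replicates at an IDR threshold of 0.05. For each line they deposited 1 combined list, which gives for every peak a score from IDR, a fold enrichment (ratio over background), and the p-value and q-value as −log10. The score and fold were used as the authors gave them and only within a list. Read counts are not in these lists, so the depth is unknown, and MACS2 peaks break and end where signal over background falls, so that depth, background and list length affect widths. The −log10 p-value was used to shorten the longer list in an alternative.

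All 35117 peaks lay within the GRCm38 chromosomes. Starts came from GENCODE M21, promoter sequences from RefSeq (GRCm38.p6) by Entrez gene. Genomic bases were read with pysam 0.24.0 and tables made with pandas 2.3.3 and scipy 1.17.1 in Python 3.11.15. A region took the name of the protein-coding gene whose start was nearest to the summit of the highest Scid.adh.2C2 peak, or of the nearest other gene where no protein-coding start was within reach. Named were the 10 members of largest ratio, the 10 of largest width, members holding a gene of the hand-made lists and the 3 regions on either side of a ratio of 2. Other genes were named after their values were seen, except those of the study's 2 lists. The members and lists were chosen with earlier results of these data known. Shares have Wilson 95% intervals, which cover counting error only, and neighbouring regions are not independent. The region rule recovered 200 of 200 regions planted as simulated single, centred peaks with widths beyond both limits. This checks the code only, since split peaks, gene clusters and ratios near 2 were not simulated. No test between the lines was possible with 1 list per line.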

Additional observations from a re-analysis of the deposited data

How the results depend on the processing

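The number of regions, their share with a T-lineage or B-lineage gene, the downstream share and the CpG ratio were recomputed under 15 alternatives each, the last of which, leaving out regions with a histone gene, was chosen after seeing the data. Of 90 values 79 stayed within 1.5 times the reported count, the interval of the share or the 95% order-statistic interval of the median. This is a weak demand, since many alternatives kept most of the same regions. Counting covered bases in place of summed widths changed no value, and a stricter overlap of peaks kept all 79 members. The downstream share ranged from 72.0 to 87.0% and the CpG ratio from 0.258 to 0.360. The counts of members and of regions wider in the B line followed the limits, with 199 and 1256 at a ratio of 1.5, 23 and 155 at a ratio of 3, and 34 and 296 at a minimum of 3000 bp. At a ratio of 3 the T-lineage share was 21.7%. The B-lineage share was 0% at a ratio of 3, at 3000 bp, with equal numbers of peaks, and without histone regions. With equal numbers of peaks 54 of the 79 members were kept among 64, and 54 among 68 with peaks of at least 10-fold enrichment. Merging peaks within 1000 bp kept 65, dropped Nrarp, Bcorl1 and 1 Fkbp5 region, and left 9 members among 25 histone regions. With widths scaled to a median ratio of 1 there were 103 members and 354 regions wider in the B line, each within 1.5 times the reported count. Leaving out a replicate could not be run, and no paired analysis was possible because each line was deposited as 1 combined list. Unknown depth limits the comparison of widths between lines.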

Other observations

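The members were spread over 20 chromosomes. Chromosome 13 held 13 of 395 shared promoter regions as members (3.29%), 12 of them at histone genes and the other at Fbp1. Chromosome 7 held 9 of 736 and chromosome 11 held 7 of 874. Chromosome 8 held 1 of 522. Outside the histone genes, 10 of 66 members had another B line peak within 1000 bp and 18 of 66 had another Scid.adh.2C2 peak there, against 28.8% and 25.5% of all shared promoter regions. A protein-coding gene gave the name in 71 of 79 members (89.9%) and in 9239 of 9672 shared promoter regions (95.5%). Members without a protein-coding name numbered 8 of 79, and included the long noncoding RNA genes Gm49032 (2252 against 884 bp), Gm28942 (1994 against 874 bp), Gm44734 (2346 against 1122 bp) and Gm45889 (1786 against 881 bp), named after their values were seen.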
